A study of Arabidopsis thaliana with 60 samples.

Results

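In the stem of Arabidopsis thaliana plants whose leaves had been stressed, 51 genes were lower in each of 8 stressed groups than in the unstressed control. The genes were chosen on that pattern. Of the 32833 genes measured, 15912 averaged 50 or more normalized counts in the 27 stem libraries. A gene was taken when its mean in the stem control was at least 1.7 times its mean in every stressed stem group. Normalized counts are reads scaled by a size factor that each library has. Since the stem control chose these genes, their stem levels against that control are given as a description, with no test.

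All plants were wild-type Col, bolting and grown in long days. A leaf received high light from a lamp (HL), heat from a block held under it (HS), or the combination of these (HL+HS), while in HL&HS plants 1 leaf was lit and another heated. Stress lasted 2 or 8 min, and the stem, which received no treatment itself, was sampled from these plants and from control plants at 0 min. The stem libraries thus form 8 stressed groups and 1 control group of 3 libraries each. The stressed leaves and leaves of control plants form 11 further groups of 3 libraries, because HL&HS plants gave a lit and a heated leaf. For the single stresses at 8 min in leaf, the sample title and the treatment label name different stresses, so leaf comparisons use the mean of the 5 leaf groups of a time. The labels do not say whether the 3 libraries of a group are separate plants, so all p-values measure only the spread between these libraries.

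A bolting stem builds xylem vessels and fibres with thick secondary walls. NAC transcription factors switch on a layer of MYB factors, and these switch on the enzymes that make cellulose, xylan and lignin. Lignin is made from phenylalanine: PAL enzymes open the pathway, 4CL enzymes activate its acids, and CAD enzymes make the alcohols that are polymerised in the wall. Green tissue also makes sucrose and exports it through SWEET transporters into the phloem, under a daily rhythm set by the circadian clock.

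The stem control stood apart from the stressed groups as a whole. When each of the 9 stem groups took the control's place in the rule, the control gave 51 genes and HL&HS at 8 min gave 20. The other 7 groups gave between 0 and 5 genes each. In the opposite direction, 5 genes had a stem control mean at most 1/1.7 of each stressed mean, among them the protochlorophyllide reductase genes PORA and PORB and the cold-induced gene COR15A. HL+HS at 8 min gave 6 such genes. In leaf the same rule with the leaf control gave 0 genes above and 9 below all 10 stressed groups, out of 15456. Stressed leaf groups could stand apart by as many genes. HL+HS leaves at 2 min gave 52 genes below each other leaf group and 2 above. HL+HS leaves at 8 min gave 1 below and 18 above. Stem libraries at 2 min held 37036697 to 47559552 reads, those at 8 min 11315638 to 12883977 and those of the control 11222205 to 12932588. The 8 min groups and the control were thus of similar depth, and the part of depth in the set was not tested. The rule with the 8 min groups alone took 73 genes and with the 2 min groups alone 100, and either count must be at least 51, since fewer conditions are set. Unstressed stems sampled at 2 or 8 min are not among the groups, so stress and any other difference between control plants and the rest cannot be told apart.

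**Figure D1:**
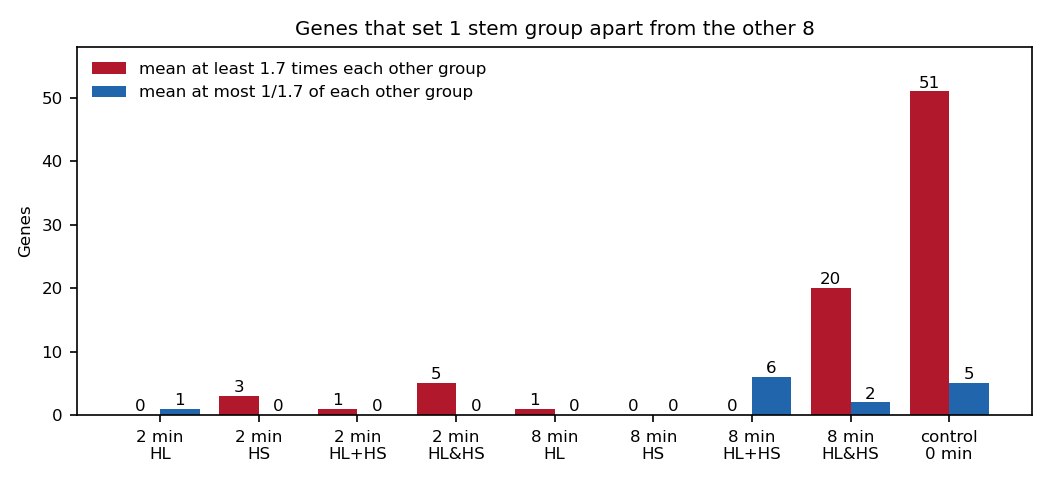
Number of genes (vertical axis) that set 1 of the 9 stem groups (horizontal axis, 3 libraries each) apart from the other 8, with means at least 1.7 times (red) or at most 1/1.7 (blue) of each other group mean. The control gave 51 and 5 genes, and HL&HS at 8 min gave 20 and 2.

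In all 51 genes, every one of the 24 stressed stem libraries lay below every one of the 3 control libraries. The same was true of 8.34% of the 15912 stem genes, and 5.98% had every stressed library above every control library. The rule used that contrast, so nothing is read from the count of 51. The smallest gap, of the lowest control library over the highest stressed library, was 1.26-fold. The coefficient of variation of the 3 control libraries had a median of 5.98% over the 51 genes and a maximum of 22.9%. The lowest value rested on 6 reads in a stressed library and 53 reads in a control library. Just inside the threshold, the ratio of the control mean to the highest stressed mean was 1.71 for the B-box gene BBX31, 1.71 for the lignin gene CAD5 and 1.704 for AT1G27020. Just outside, it was 1.69 for CYP81D1, RHA2A and EXL4. Because these are whole stems, fewer cells of a type and less RNA per cell cannot be told apart.

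The depth of the difference varied with the stress. The median log2 difference of the 51 genes from the stem control at 2 min was -1.55 for HL, -1.03 for HS, -1.25 for HL+HS and -1.41 for HL&HS. At 8 min it was -1.46 for HL, -1.11 for HS, -1.12 for HL+HS and -1.54 for HL&HS. The median over all genes lay between -0.01 and 0.02 in these groups. HL&HS at 8 min held the lowest stressed mean of 19 genes, HL at 2 min of 10 and HL at 8 min of 9. HS at 2 min and HL+HS at 8 min each held the highest stressed mean of 16 genes. These 8 values share 1 control and are not independent of each other.

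**Figure D2:**
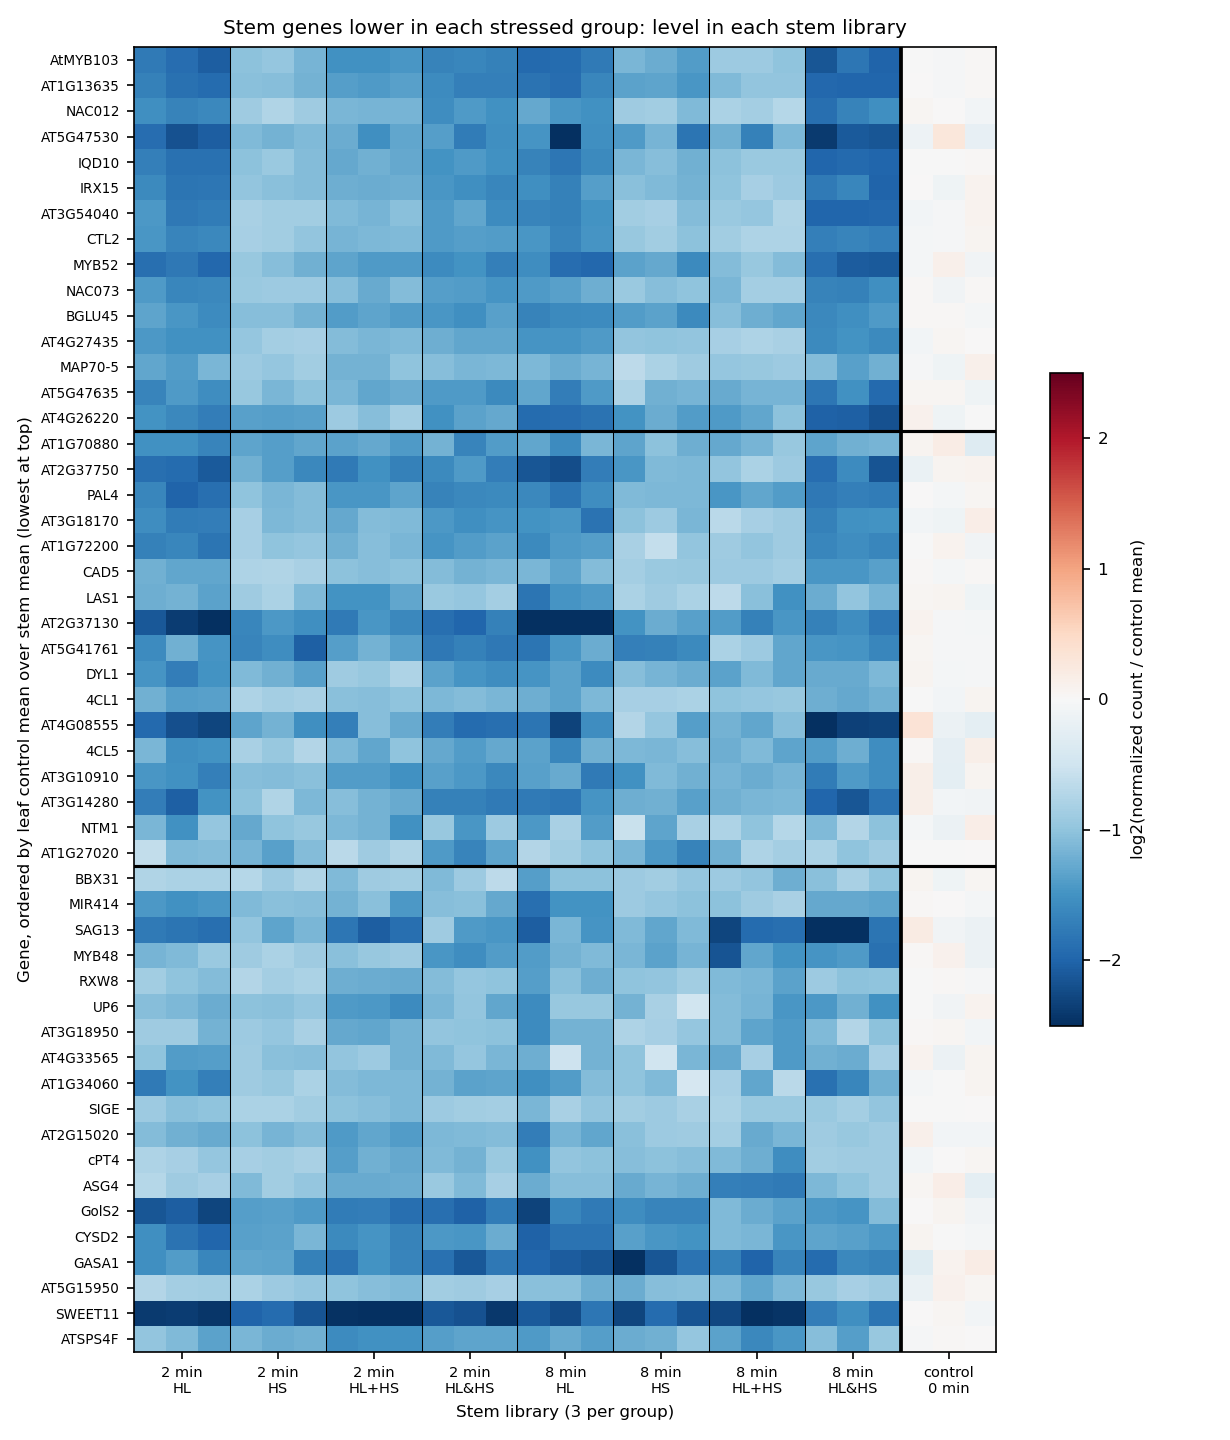
Level of each of the 51 genes (rows) in each of the 27 stem libraries (columns, 3 per group, control at the right), as log2 of the normalized count over the control mean. Rows are ordered by the leaf control mean over the stem mean, with lines at 0.1 and 5. All stressed libraries are blue for every gene. By the median over the genes, the palest stressed columns are those of HS at both times and of HL+HS at 8 min.

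The genes were of contrasting kinds by the tissue in which they are read. The leaf control mean was at most 0.1 times the stem mean for 15 of the 51, against 5.524% of the 15912 stem genes. It was at least 5 times the stem mean for 19, against 2.325%. The other 17 lay between. These bounds were set after the values were seen and serve to order the genes. The stem mean includes the 24 stressed libraries that the rule holds low, so the choice of the 51 genes itself raises this ratio. Over the stem control mean instead, SAG13, AT1G67195, MYB48 and BBX31 had ratios of 2.60, 2.96, 3.21 and 3.28, under the bound of 5. PAL4, AT1G70880 and AT2G37750 had 0.098, 0.063 and 0.079, under the bound of 0.1. Among all stem genes of the first class 13.9% had every stressed stem library below every control library. Among those of the leaf-rich class 39.2% did. The same ratio orders these genes, so a lower level in stressed stems itself moves a gene toward the leaf-rich class. No gene of the set lies next to another on its chromosome.

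The 15 stem-restricted genes include regulators and builders of secondary walls, of which NAC012 and CTL2 are on the xylem and secondary wall list. NAC012 (AT1G32770, also called NST3 or SND1), a master switch of fibre wall formation, had 149, 237 and 338 normalized counts as the lowest, median and highest of the 24 stressed stem libraries. In stem control it had 574, 554 and 529. The groups did not overlap, and the lowest stressed mean was that of HL&HS at 8 min. NAC073 (AT4G28500, SND2), a NAC factor that acts below it, ran from 351 to 630 in stressed stems, with a median of 478, against 1160, 1071 and 1162 in control. AtMYB103 (AT1G63910), a MYB factor of fibre walls needed for syringyl lignin, ran from 375 to 875 in stressed stems, with a median of 554, against 1640, 1613 and 1689 in control. At 8 min its libraries lay at 428 to 481 for HL, 375 to 472 for HL&HS and 821 to 875 for HL+HS, so stressed groups also differed from one another. MYB52 (AT1G17950), another wall-associated MYB factor, ran from 58.9 to 132 in stressed stems, with a median of 87.3, against 244, 275 and 238 in control.

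Other members of the class act in the wall itself. CTL2 (AT3G16920), a chitinase-like protein of secondary-wall cellulose assembly, ran from 3466 to 6623 in stressed stems, with a median of 4691, against 10950, 11080 and 11810 in control. Its 3 libraries under HL&HS at 8 min had 3466, 3609 and 3468, and its highest 3, under HL+HS at 8 min, had 6180, 6564 and 6623. IRX15 (AT3G50220), needed for normal xylan and chosen here after its values were seen, ran from 433 to 969 in stressed stems, with a median of 698, against 1737, 1608 and 1828 in control. MAP70-5 (AT4G17220), a microtubule-associated protein that shapes vessel wall bands, likewise chosen after its values were seen, ran from 188 to 313 in stressed stems, with a median of 230.1, against 481, 458 and 541 in control. BGLU45 (AT1G61810), a glucosidase that acts on monolignol glucosides, ran from 547 to 833 in stressed stems, with a median of 662, against 1772, 1774 and 1693 in control. A gene on the opposite strand covers 7.9% of the exons of BGLU45, and whether reads were counted by strand is not given in the sources used here.

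Other stem-restricted genes have less settled roles. The calmodulin-binding IQ-domain gene IQD10 (AT3G15050) ran from 482 to 1008 in stressed stems, with a median of 752, against 1886, 1906 and 1939 in control. AT4G27435, which encodes a DUF1218 protein, ran from 1142 to 2001 in stressed stems, with a median of 1515, against 3262, 3572 and 3465 in control. AT1G13635, annotated as a DNA glycosylase, ran from 741 to 1484 in stressed stems, with a median of 1025, against 2936, 2862 and 3007 in control. AT4G26220, a methyltransferase gene, ran from 113 to 284 in stressed stems, with a median of 192, against 549, 475 and 507 in control. AT5G47530, annotated as auxin-responsive, ran from 25.9 to 71.4 in stressed stems, with a median of 53.4, against 141, 187 and 134 in control. In these 5 genes, too, no stressed library reached a control library, and the lowest group was HL&HS at 8 min. AT3G54040 and AT5G47635 complete the class, with control means 1.803 and 2.04 times their highest stressed mean.

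Lignin enzymes made up part of the genes read in both tissues. PAL4 (AT3G10340), a phenylalanine ammonia-lyase that starts the pathway, ran from 838 to 1656 in stressed stems, with a median of 1181, against 3337, 3215 and 3460 in control. 4CL1 (AT1G51680), a ligase that activates coumaric acid, ran from 3942 to 6008 in stressed stems, with a median of 4881, against 10230, 9766 and 10860 in control. CAD5 (AT4G34230), which makes the alcohols, ran from 1319 to 2165 in stressed stems, with a median of 1726, against 3718, 3488 and 3679 in control. None of the 3 overlapped, and in each the HS libraries at 2 min were the highest stressed group. A further ligase of the family, 4CL5 (AT3G21230), ran from 120 to 223 in stressed stems, with a median of 159, against 381, 319 and 414 in control.

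**Figure D3:**
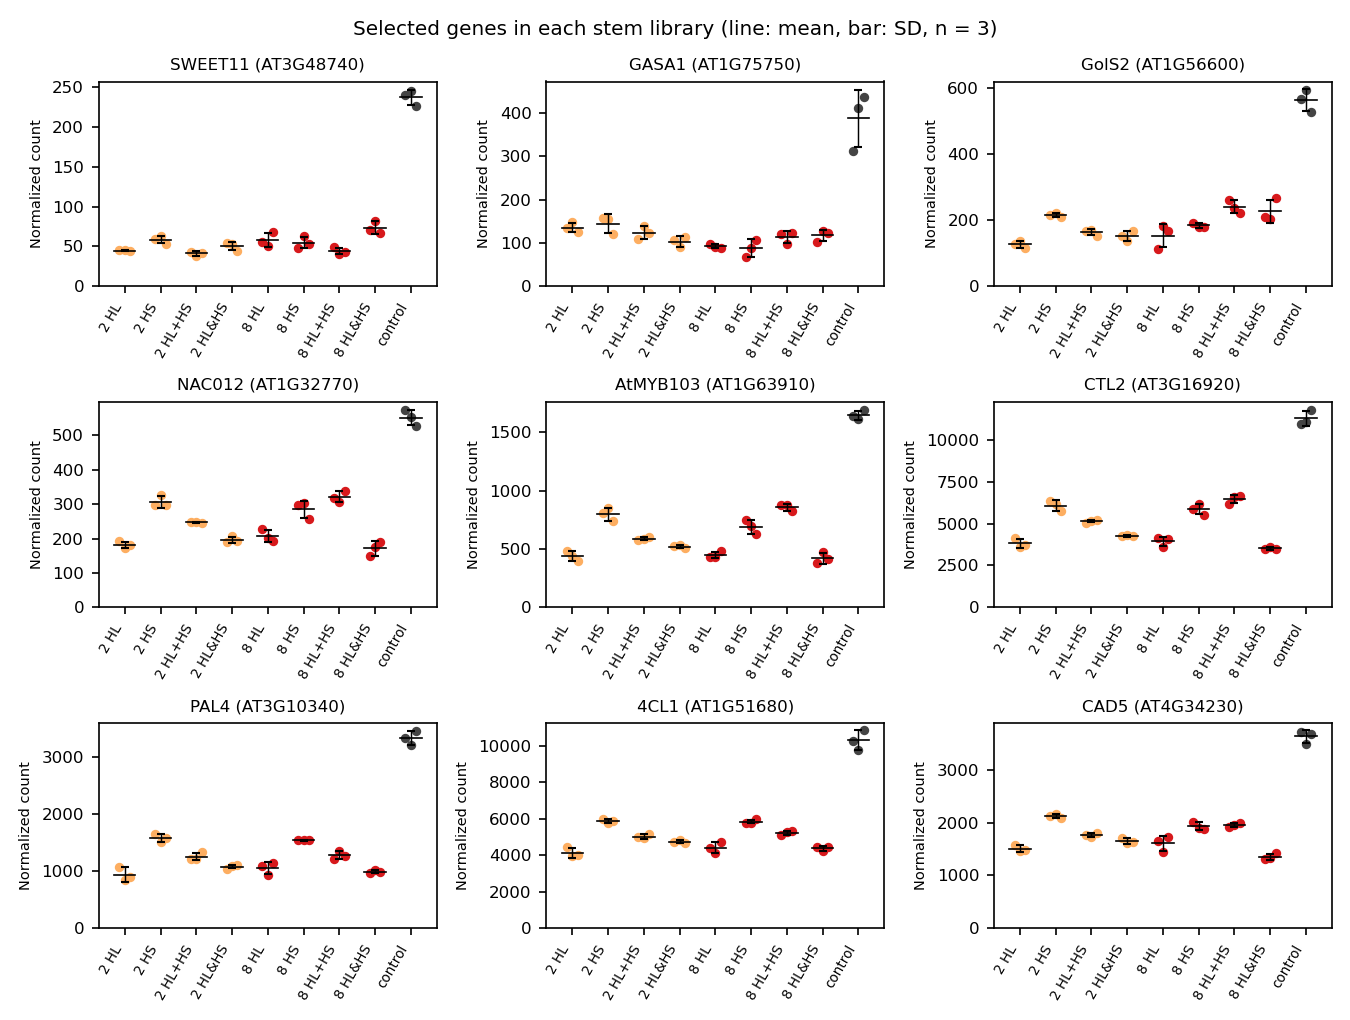
Normalized count (vertical axis, from 0) of 9 genes in each stem library, by stressed group (2 or 8 min) with the control at the right; points are libraries, lines means and bars SD (n = 3). For each gene all stressed points lie below all control points, and NAC012, AtMYB103, CTL2 and the lignin genes are higher under HS than under HL at both times.

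The lignin list shows how far the pattern went beyond the 51 genes. It holds 14 genes from PAL to CAD, and in 13 of them every stressed stem library lay below every control library. In 0 of them did every stressed library lie above. The first of these contrasts held in 8.34% of all stem genes and the second in 5.98%. The 13 include 3 of the 51 genes, which the rule chose on this contrast. PAL1 had stressed group means from 5553 to 7495, against 12480 in stem control, and COMT1, a methyltransferase of the pathway, 4194 to 5966, against 9772. The exception was FAH1, which makes syringyl units, with group means from 1432 to 1675, against 1646 in control. The list's summed level ran from 51190 to 67570 in stressed libraries and from 100700 to 105900 in control libraries.

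The markers of xylem and secondary walls, which also mark a cell type, moved in the same way. Of 22 with a mean of at least 50, 15 had every stressed stem library below every control library and 0 had every one above. Over all stem genes the shares were 8.34% and 5.98%. NAC012 and CTL2, which the rule chose on this contrast, are among the 15. The cellulose synthase gene CESA4 had stressed group means from 6370 to 11620, against 17440 in control, and the laccase gene LAC4 4741 to 7978, against 12680. Genes tied to vessels were divided. The vessel protease XCP2 had stressed group means from 4753 to 5755, against 6329 in control, with no overlap between stressed and control libraries. In others the stressed and control libraries overlapped. VND6 had group means from 155.9 to 197.7, against 163.3 in control, VND7 71.2 to 91.3, against 73.1, and XCP1, a further vessel protease, 2654 to 3104, against 2648. The defining markers of xylem were all read except MYB58, which had 0 reads in all stem libraries. The list sum ran from 52890 to 89310 in stressed libraries and from 114900 to 119700 in control libraries, and from 1460 to 1606 in leaf control libraries. Its part in the lower level of the 51 genes was not tested.

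Markers of other tissues were spread differently. The phloem list summed to 10440 to 13700 in stressed libraries and 11940 to 12300 in control libraries. In 2 of its 9 genes, SWEET11 and PP2-A1, every stressed library lay below every control library. SWEET11 was chosen by the rule on this contrast, which held in 8.34% of all stem genes, while 5.98% had every stressed library above. The mesophyll list summed to 828200 to 1056000 in stressed libraries and 894000 to 958900 in control libraries, with 0 of 10 genes lower in this sense. The epidermal list had 0 of 14 genes lower and 5 higher. The cell division list had 0 of 6 lower and 3 higher, with WUS and CLV3 at or under 3 reads. Pollen and anther genes summed to 420 to 678 in stressed libraries and 632 to 706 in control libraries, with 1 of 3 genes lower, and DYT1 and MYB80 were at or under 3 reads. Floral organ genes summed to 79.1 to 343 in stressed libraries and 194 to 243 in control libraries.

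**Figure D4:**
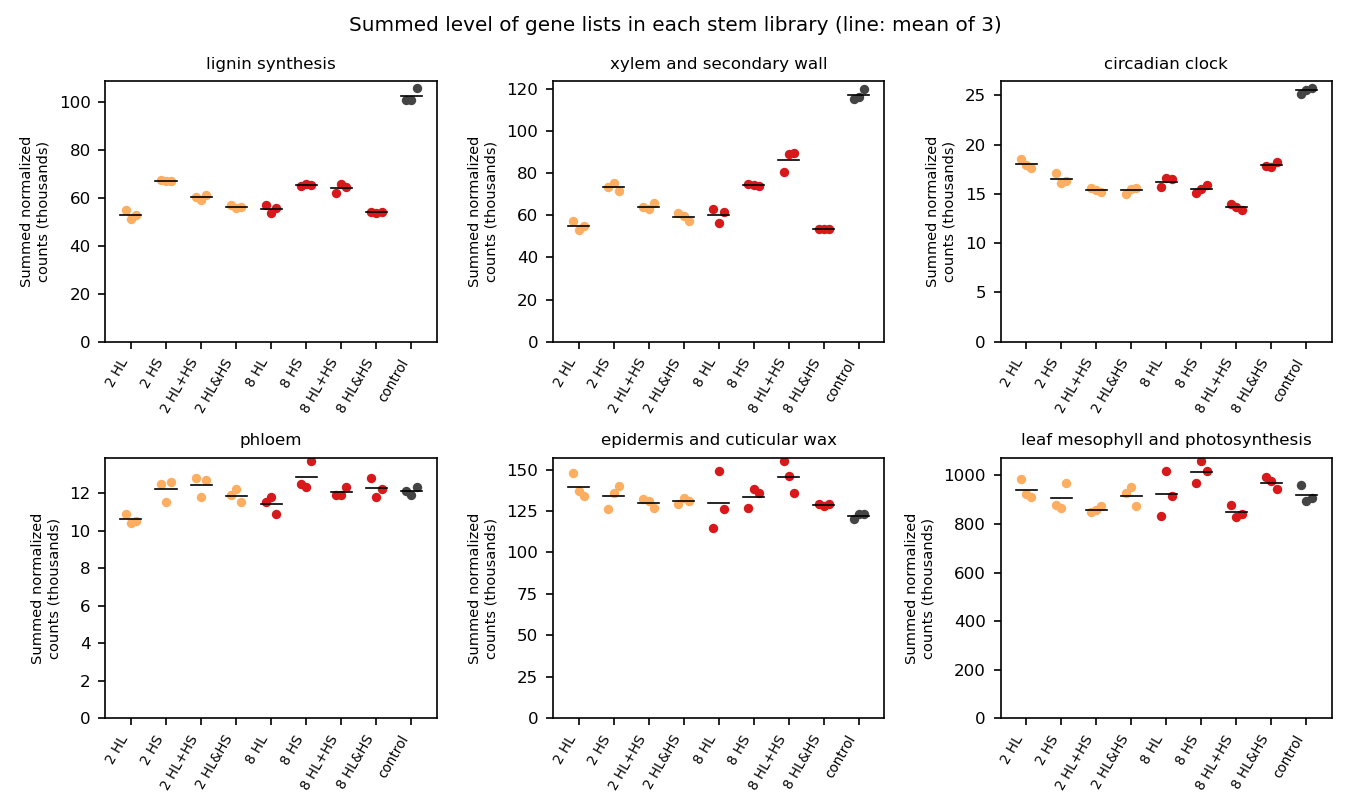
Summed normalized counts (vertical axes from 0, scaled as labelled) of 6 gene lists in each stem library, with stressed groups at 2 and 8 min and the control at the right; lines are means of 3. The lignin, xylem and clock sums of all stressed libraries lie below the control, while the phloem, epidermis and mesophyll sums overlap it.

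The windows below, the 300 bases before each gene start in RefSeq on TAIR10.1, are those of PAL4 and CAD5, shown because they hold motifs searched for. The window of 4CL1, the other gene of the set on the lignin list, held 0 matches to any of them. The window of PAL4 is chr3:3203688-3203987 on the plus strand, and that of CAD5 is chr4:16388941-16389240 on the minus strand. Capitals mark a G-box (CACGTG) with an overlapping ABRE, the abscisic acid element (ACGTGTC), in PAL4, and an AC element (ACCTACC or ACCAACC) followed by an ABRE in CAD5.
PAL4: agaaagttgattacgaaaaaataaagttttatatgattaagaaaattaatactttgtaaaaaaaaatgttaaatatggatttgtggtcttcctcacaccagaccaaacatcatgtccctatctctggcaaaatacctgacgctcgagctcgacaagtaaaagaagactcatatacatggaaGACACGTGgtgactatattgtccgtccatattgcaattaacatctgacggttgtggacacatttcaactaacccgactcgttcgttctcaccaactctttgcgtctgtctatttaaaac
CAD5: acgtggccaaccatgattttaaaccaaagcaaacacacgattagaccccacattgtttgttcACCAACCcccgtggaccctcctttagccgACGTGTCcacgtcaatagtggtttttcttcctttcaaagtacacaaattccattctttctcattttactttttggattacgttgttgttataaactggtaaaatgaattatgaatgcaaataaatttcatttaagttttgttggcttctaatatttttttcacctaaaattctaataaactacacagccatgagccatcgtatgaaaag
In PAL4 the G-box begins 117 bases before the start and the ABRE, on the other strand, 119 bases before it. In CAD5 the AC element begins 238 and the ABRE 209 bases before the start. Both strands were searched in the windows of all genes. An ABRE was found in 8 of the 51 windows (15.7%), against 4.63% of the windows of the 15891 stem genes searched and 3.46% of all. The G-box was found in 7 windows (13.7%), against 8.08% and 5.98%, and the AC element in 3 (5.88%), against 4.6% and 4.45%. W-boxes (TTGACC or TTGACT) were found in 8 (15.7%), against 30.7% and 31.5%, and TCP sites (TGGGCC) in 4 (7.84%), against 19.1% and 12.3%. The evening element (AAAATATCT) and the heat shock element were found in 0 of the 51, against 2.83% and 0.453% of the windows of the stem genes. Windows were not cut where they reach exons of other genes. Such exons cover 287 of the 300 bases in AT4G26220, which holds an AC element. They cover 300 bases in ASG4, which holds a G-box, and 85 in UP6, which holds a G-box and an ABRE. G-box and ABRE can share letters, and these matches describe the windows only.

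The 19 leaf-rich genes include the largest ratios of the set. SWEET11 (AT3G48740), which exports sucrose for phloem loading, ran from 38.2 to 82.5 in stressed stems, with a median of 51.4, against 240.5, 245 and 226 in control. Its control mean was 3.23 times its highest stressed mean, that of HL&HS at 8 min. GASA1 (AT1G75750), a small gibberellin-regulated peptide, ran from 66.9 to 158 in stressed stems, with a median of 116, against 312, 412 and 438 in control, a ratio of 2.68. CYSD2 (AT5G28020), a cysteine synthase, ran from 104 to 197 in stressed stems, with a median of 155, against 446, 419 and 407 in control. GolS2 (AT1G56600), which makes galactinol for raffinose sugars, ran from 113 to 267 in stressed stems, with a median of 180.4, against 568, 594 and 529 in control. ATSPS4F (AT4G10120), a sucrose phosphate synthase, ran from 157 to 251 in stressed stems, with a median of 193, against 471, 495 and 483 in control. SAG13 (AT2G29350), a senescence marker, ran from 35.7 to 116 in stressed stems, with a median of 62.7, against 248, 204 and 196 in control. Sugar synthesis and export stand beside other functions here, and in none of these genes did the groups overlap.

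These 6 genes and others of the class had far more reads in leaf. In leaf control SWEET11 averaged 5000, ATSPS4F 16620, GASA1 2878, CYSD2 3613, GolS2 3651 and SAG13 561 normalized counts. The mesophyll list summed to 1486000 to 1533000 in leaf control libraries, and the part of leaf-like tissue in the stem levels of these genes was not tested. Other leaf-rich members were SIGE (AT5G24120), a plastid sigma factor tied to light and the clock, ASG4 (AT1G01520), a MYB-like gene of the family of the clock genes CCA1 and LHY, and cPT4 (AT5G58770), a cis-prenyltransferase. SIGE ran from 850 to 1089 in stressed stems, with a median of 1001, against 1870, 1868 and 1897 in control. ASG4 ran from 77.1 to 161 in stressed stems, with a median of 122, against 271, 291 and 221 in control. Of its 50-base windows 5.8% occur elsewhere in the genome. cPT4 ran from 313 to 534 in stressed stems, with a median of 449.8, against 876, 918 and 948 in control, and a gene on the opposite strand covers 11.1% of its exons. AT5G15950, an adenosylmethionine decarboxylase of polyamine synthesis, ran from 357 to 527 in stressed stems, with a median of 444, against 780.3, 945 and 914 in control.

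Windows of GolS2 and AT5G15950 are shown as examples with matches from the leaf-rich class. In that class 5 of 19 windows held a G-box (26.3%) and 4 an ABRE (21.1%). Among the windows with a G-box, exons of other genes cover 300 bases of that of ASG4 and 85 of that of UP6. The window of GolS2 is chr1:21207237-21207536 and that of AT5G15950 is chr5:5205569-5205868, both on the plus strand, with the G-box and the overlapping ABRE in capitals.
GolS2: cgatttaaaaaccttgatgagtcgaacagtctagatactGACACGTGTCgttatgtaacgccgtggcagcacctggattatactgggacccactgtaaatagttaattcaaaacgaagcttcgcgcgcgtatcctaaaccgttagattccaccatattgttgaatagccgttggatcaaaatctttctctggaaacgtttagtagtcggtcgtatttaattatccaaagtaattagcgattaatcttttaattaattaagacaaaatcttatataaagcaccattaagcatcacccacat
AT5G15950: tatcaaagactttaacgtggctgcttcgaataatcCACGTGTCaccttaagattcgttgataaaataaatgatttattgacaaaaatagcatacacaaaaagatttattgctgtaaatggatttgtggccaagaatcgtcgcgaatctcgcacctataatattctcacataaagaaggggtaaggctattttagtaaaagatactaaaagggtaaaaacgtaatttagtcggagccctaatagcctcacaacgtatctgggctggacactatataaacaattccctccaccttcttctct
The G-box begins 259 bases before the start of GolS2, with an ABRE on either strand, and 265 bases before the start of AT5G15950. In the stem-restricted class 1 of 15 windows held a G-box and 1 an ABRE.

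The rest of the leaf-rich class was MYB48, RXW8, UP6, BBX31, AT3G18950, AT4G33565, AT1G34060, AT2G15020 and the locus AT1G67195. The locus AT1G67195 is annotated as the 108-base precursor of MIR414, and its counts, 55.7 to 117 in stressed stems against 211, 209 and 199 in control, are reads of that locus and not of a mature miRNA. RXW8 (AT1G58520) ran from 904 to 1415 in stressed stems, with a median of 1166, against 2353, 2426 and 2311 in control. BBX31 (AT3G21890), a B-box factor, ran from 113 to 186 in stressed stems, with a median of 156, against 305, 271 and 301 in control. The UP6 locus shares 23.8% of its exonic length with genes on the other strand, so its level is uncertain. MYB48, annotated as a MYB domain protein like MYB52 and AtMYB103, ran from 40.6 to 104 in stressed stems, against 183, 195 and 162 in control.

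Several genes read in both tissues complete the set. AT2G37130, a class III peroxidase, ran from 80.8 to 216 in stressed stems, with a median of 158, against 537, 496 and 492 in control, and its lowest group mean was that of HL at 8 min. AT1G70880 ran from 73.3 to 121 in stressed stems, with a median of 93.5, against 244, 265 and 186 in control, and the RING gene AT3G10910 from 67.7 to 112, with a median of 87.7, against 254, 194 and 242. The other RING genes, AT1G72200 and AT4G33565, had control means 1.72 and 1.804 times their highest stressed mean. DYL1 (AT1G28330), a dormancy-associated gene, ran from 179 to 348 in stressed stems, with a median of 243, against 619, 574 and 581 in control, and LAS1, lanosterol synthase, from 70.0 to 157.5, with a median of 114, against 257, 259.8 and 229.7. NTM1, a membrane-tethered NAC factor, had a ratio of 1.77, and 16.7% of its 50-base windows occur elsewhere. AT2G37750, AT3G14280, AT3G18170, AT4G08555 and AT5G41761 had ratios from 1.73 to 2.00.

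Comparisons among the stressed stems leave the control out of the difference, although its 3 libraries enter the shared estimate of spread. The rule bounds the stressed means from above only. They were tested over all genes with limma and Benjamini-Hochberg adjustment, with 0.05 as the threshold. At 2 min, 32 of the 51 genes were lower under HL than under HS and 0 were higher, where 5.97% of the 18428 genes tested were lower and 3.34% higher. The median log2 difference of the 51 was -0.50, against -0.01 over all genes. At 8 min, 30 were lower under HL and 1 higher, where 8.17% of all genes were lower and 6.37% higher, with a median of -0.40. There were 26 genes lower under HL at both times, a count for which no share over all genes was taken. For 0 of the 51 did the HL against HS difference itself change between the times in limma, with 17 at an unadjusted p under 0.05. Over all genes 0.537% had a lower difference at 8 min and 1.25% a higher one, so a count of 0 is near these shares. The share at an unadjusted p was not taken over all genes. After rescaling by TMM, which changed the split of all genes at 2 min, 939 were lower and 810 higher, against 1100 and 615 with the deposited scaling, and 31 of the 51 were lower.

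Of the genes with the smallest p, IQD10, CTL2 and AT4G27435 are stem-restricted, and the peroxidase gene AT2G37130 is read in both tissues. IQD10 averaged 544.5 ± 35.9 under HL and 947.8 ± 49.2 under HS at 2 min (SD, n = 3 each), a log2 difference of -0.80 ± 0.06 (SE; adjusted p 6.22e-14, limma with Benjamini-Hochberg). CTL2 averaged 3818 ± 282 under HL and 6067 ± 317 under HS at 2 min, a difference of -0.67, and at 8 min 3930 ± 278 and 5851 ± 308 in the same order, a difference of -0.57 (adjusted p 3.51e-13 and 3.81e-11, limma with Benjamini-Hochberg). AT4G27435 averaged 1229 under HL and 1864 under HS at 2 min, and 1252 and 1724 at 8 min in the same order. All HL libraries of the 3 genes lay below all HS libraries at the times named. At 8 min the peroxidase gene AT2G37130 averaged 86.9 ± 2.98 under HL and 198 ± 18.5 under HS, a log2 difference of -1.17 (adjusted p 4.36e-10, limma with Benjamini-Hochberg). AT1G27020 was the single gene higher under HL, at 53.5 ± 4.99 against 36.8 ± 6.82 under HS at 8 min (adjusted p 0.0231, limma with Benjamini-Hochberg), and it was not called by edgeR or DESeq2 or without replicate 2 or 3. By class, 14 of the 15 stem-restricted genes, 12 of the 17 genes between and 6 of the 19 leaf-rich genes were lower under HL at 2 min, and 13, 11 and 6 at 8 min. Of the lignin list 12 of 14 and of the xylem list 16 of 22 were lower under HL at 2 min, and 10 and 13 at 8 min, with 0 higher.

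Whether both stresses fell on 1 leaf or on different leaves was compared next. At 8 min, 27 of the 51 genes were lower under HL&HS than under HL+HS and 7 were higher, where 21.1% of all genes were lower and 16.7% higher (limma, Benjamini-Hochberg). With TMM scaling 3091 of all genes were lower and 3821 higher, against 3897 and 3074 with the deposited scaling, and the same 27 genes were lower. All 15 stem-restricted genes were lower, with a median log2 difference of -0.87. IQD10 averaged 488.3 ± 8.39 under HL&HS and 981.6 ± 40.3 under HL+HS (SD, n = 3 each), a log2 difference of -1.005 (adjusted p 9.52e-18, limma with Benjamini-Hochberg). CTL2 averaged 3514 ± 82.3 under HL&HS and 6455 ± 241 under HL+HS, and AT4G27435 averaged 1168 ± 43.1 and 1963 ± 33.9 in the same order. In these genes the libraries of the groups did not overlap. The xylem list had 17 of 22 genes lower and 0 higher, among them CESA4, at 6490 under HL&HS and 11600 under HL+HS. The lignin list had 10 of 14 lower and 0 higher.

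The leaf-rich genes did not follow. Of these 19, 2 were lower under HL&HS than under HL+HS at 8 min and 7 were higher, a count that was 4 without replicate 3. ASG4 averaged 130 ± 11.1 under HL&HS and 78.6 ± 1.37 under HL+HS, a log2 difference of 0.72 ± 0.11 (SE; adjusted p 7.6e-07, limma with Benjamini-Hochberg). SWEET11 averaged 73.5 ± 8.07 under HL&HS and 44.2 ± 4.20 under HL+HS, a log2 difference of 0.72 ± 0.14 (adjusted p 0.000102, limma with Benjamini-Hochberg). cPT4 averaged 496 ± 5.35 under HL&HS and 377 ± 57.8 under HL+HS, a log2 difference of 0.41 (adjusted p 0.000462, limma with Benjamini-Hochberg). All 3 HL&HS libraries of each lay above the HL+HS libraries. The mesophyll list had 7 of 10 genes higher and 0 lower in the same comparison, and its part in the higher level of the leaf-rich genes was not tested.

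At 2 min the same comparison called fewer genes. Under HL&HS 13 of the 51 were lower and 3 higher than under HL+HS, where 1.66% of all genes were lower and 1.47% higher (limma, Benjamini-Hochberg). The count of 13 was 4 without replicate 1, 6 without replicate 2 and 2 without replicate 3. DYL1 averaged 216 ± 17.3 under HL&HS and 324 ± 20.7 under HL+HS, a log2 difference of -0.58 ± 0.09 (SE; adjusted p 8.5e-06, limma with Benjamini-Hochberg). CTL2 differed by -0.27 and AT1G13635 by -0.28, the second not called without replicate 3. LAS1, SAG13 and RXW8 were higher, by 0.51, 0.65 and 0.22 on the log2 scale, and none of the 3 was called when any replicate was left out. There were 11 genes lower under HL&HS at both times, and the share over all genes was not taken for this count.

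Between the 8 min and 2 min stems, taken as means over the 4 stresses, the 51 genes differed little. At 8 min 7 were lower and 3 higher, where 8.11% of all genes were lower and 11.7% higher (limma, Benjamini-Hochberg), and the log2 differences ran from -0.33 to 0.29 with a median of 0.01. The count of 3 was 1 without replicate 2 or 3. TMM scaling turned the split of all genes to 2193 lower and 1691 higher, against 1494 and 2151, and gave 10 lower and 2 higher among the 51. AT4G26220 averaged 168 at 8 min and 207 at 2 min, a log2 difference of -0.32 ± 0.05 (SE; adjusted p 1.48e-06, limma with Benjamini-Hochberg). ASG4 and AT5G15950 were lower at 8 min by -0.27 and -0.17. GolS2 averaged 201 at 8 min and 165 at 2 min, a log2 difference of 0.29 (adjusted p 0.000268, limma with Benjamini-Hochberg). SWEET11 and AT1G70880 differed by 0.22 and 0.19, the first not called by DESeq2 or when any replicate was left out, the second not called without replicate 2 or 3 or after TMM scaling. The library ranges of the times overlapped in all 6 genes. The 2 min libraries were deeper, so depth and time cannot be told apart here.

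**Figure D5:**
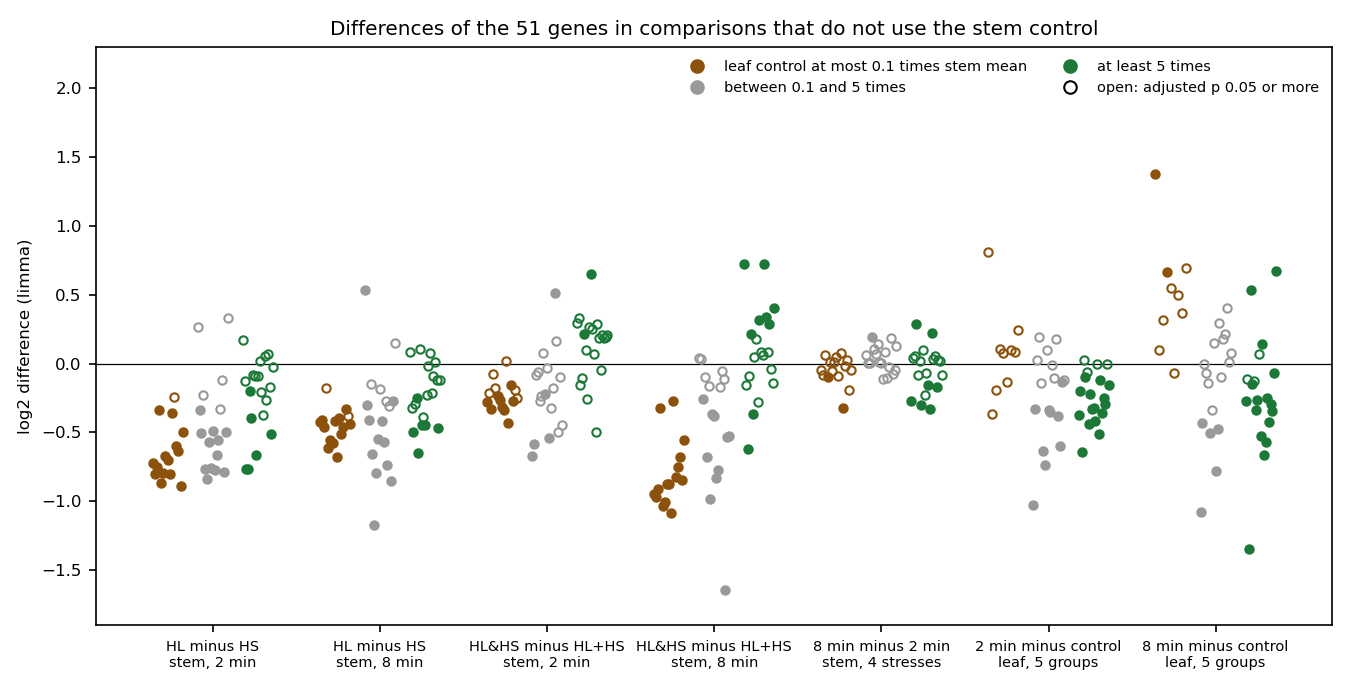
Log2 difference (vertical axis, limma) of each of the 51 genes in 7 comparisons whose differences leave out the stem control. Colours give the leaf control mean over the stem mean, and filled points have an adjusted p under 0.05. The stem-restricted genes (brown) lie below 0 under HL against HS and under HL&HS against HL+HS at 8 min, where 15 of 15 were called lower.

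The leaves that received the stress offer a comparison with another control. Of the 45 genes with a leaf mean of at least 10, 24 were lower in the 2 min leaves than in leaf control and 0 were higher, where 12.3% of all 18231 leaf genes were lower and 17.8% higher (limma, Benjamini-Hochberg, mean of 5 stressed groups). At 8 min 18 were lower and 5 higher, where 15.8% were lower and 20.8% higher. Of the 45, 16 were lower at both times, a count without a share over all genes. The count of 5 was 9 without replicate 2 and 3 without replicate 3. The median log2 difference of the 45 was -0.16 at 2 min and -0.07 at 8 min, against 0.01 and 0.00 over all genes. Leaf libraries at 2 min held 31725824 to 47329912 reads and those at 0 and 8 min 11071918 to 12998149, so depth cannot be told apart from the 2 min stress, while the 8 min leaves match their control.

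Most of the lower leaf genes were leaf-rich. SIGE ran from 10900 to 13700 normalized counts over the 15 leaf libraries at 2 min, with a median of 12000, against 14800 to 15000 in leaf control. The difference was -0.29 ± 0.02 on the log2 scale (SE; adjusted p 1.19e-13, limma with Benjamini-Hochberg), and at 8 min it was -0.35. SWEET11 ran from 3110 to 3940 at 2 min and 2760 to 4070 at 8 min, against 4700 to 5280 in leaf control, differences of -0.52 and -0.57. AT1G34060, annotated as a pyridoxal phosphate-dependent transferase, ran from 436 to 738 at 2 min and 163 to 660 at 8 min, against 830 to 848 in leaf control, differences of -0.64 and -1.35. In these 3 genes every stressed leaf library lay below every leaf control library. By class, 15 of the 19 leaf-rich genes, 9 of the 17 genes between and 0 of the 9 stem-restricted genes tested were lower at 2 min, and 13, 5 and 0 at 8 min. In leaf control the 9 stem-restricted genes averaged from 4.04 (AT1G13635) to 80.0 (CTL2) normalized counts, and the leaf-rich genes 561 (SAG13) or more. A fall from the lowest of these levels could hardly be called, so the count of 0 cannot set this class apart from the others. The leaf control libraries that order the classes also enter the comparison.

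Some genes lower in stressed stems were higher in stressed leaves at 8 min. They were 5 of the 45 tested, where 20.8% of all leaf genes were higher, so the set as a whole did not rise. cPT4 averaged 10380 where the title names HL, 7120 where it names HS and 15900 where it names HL+HS, against 7254 in leaf control. In HL&HS plants it averaged 14500 in the lit leaf and 12100 in the heated leaf. The log2 difference over the 5 groups was 0.67 ± 0.04 (SE; adjusted p 9.35e-20, limma with Benjamini-Hochberg), although the group with HS alone in the title lay near the control. GolS2 averaged 3777, 4252 and 8562 in the groups titled HL, HS and HL+HS, and 5966 and 5051 in the lit and the heated leaf of HL&HS plants, against 3651 in leaf control, a log2 difference of 0.54 (adjusted p 7.42e-19, limma with Benjamini-Hochberg). CTL2 averaged 151 over the 8 min leaf groups, against 80.0 in leaf control, a log2 difference of 0.66 (adjusted p 0.0154, limma with Benjamini-Hochberg), and was not called without the filter on low values, at an adjusted p of 0.0565. In the lit leaf of HL&HS plants its libraries had 155, 142 and 624, and in replicate 3, the highest, AT1G13635, AtMYB103 and IQD10 also had their highest values of any leaf library, 121.5, 74.1 and 82.3. The xylem list had 10 of 16 genes higher and 2 lower in the 8 min leaves, and its part in the level of CTL2 was not tested.

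Clock genes were partly lower in the stressed stems as well. Of 8 clock genes with a mean of at least 50, 4 had every stressed stem library below every control library and 0 had every one above. Over all stem genes the shares were 8.34% and 5.98%. No gene of this list is among the 51. CCA1 had stressed group means from 4126 to 5512, against 8126 in stem control, LHY 5488 to 8472, against 12530, RVE8 979 to 1497, against 1978, and PRR9 347 to 411, against 538. In the other 4 the stressed and control libraries overlapped. Of these PRR7, like PRR9 a morning gene, had group means from 1408 to 1838, against 1544 in control, and TOC1, an evening gene, 267 to 318, against 237. Under HL&HS against HL+HS at 8 min LHY was higher by 0.60, RVE8 by 0.58 and CCA1 by 0.40 on the log2 scale (adjusted p 3.16e-15, 3.81e-13 and 1.68e-10, limma with Benjamini-Hochberg). In leaf at 8 min, LHY was lower than control by a difference of -0.51, RVE8 by -0.33 and CCA1 by -0.11, while PRR7 was higher by 0.45. The hour of sampling is not given in the labels, and its part in the level of the 51 genes was not tested.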

How the data were processed

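RNA-seq of stem and leaf gave 60 libraries in 20 groups of 3, grouped by sample title. The deposited file holds normalized counts (a signal: reads divided by 1 size factor per library). Per the submitters' processing notes, FastQC 0.11.7, STAR 2.4.0.1, DESeq2 1.20.0 and the TAIR10 build were used. Dividing each value by its library's smallest step gave whole reads for 100% of values (within 1e-06 reads), so depth is known. The 51 genes and all gene lists were chosen with earlier results of these data known.

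Differences were tested with limma 3.58.1 in R 4.3.3 (lmFit, eBayes with trend, two-sided) on log2(normalized count + 1), which understates the change of low genes. Genes with a mean of at least 10 in the tissue entered, 18428 in stem and 18231 in leaf. All libraries of a tissue shared 1 fit, with Benjamini-Hochberg adjustment over all genes tested and a threshold of 0.05. Comparisons of 4 or 5 groups at a time weighted the groups equally. Alternatives were a pseudocount of 0.1, no filter, TMM scaling, a replicate block, a fit of the compared groups alone, each replicate left out, and edgeR 4.0.16 and DESeq2 1.42.0 on the recovered reads. On those reads edgeR called 2615 genes lower and 3133 higher under HL&HS than under HL+HS in stem at 8 min, against 3897 and 3074 by limma. The limma step was tested on simulated data.

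Genes named by rule were the 12 with the largest ratio, the 6 with the highest stem mean, members of the lists, the 3 with the smallest p in each direction of each comparison, the 3 nearest the threshold on each side and members that share a family name. The remaining members are named to account for all 51. All 51 were matched to RefSeq on TAIR10.1 by locus, and windows were read from that genome. Replicates differed by more than counting noise in all 60 pairs (chi-square per gene 1.34 to 6.60).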

Additional observations from a re-analysis of the deposited data

Results flagged for a closer look

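The HL&HS against HL+HS difference in stem was not the same at both times. In a limma test of the 8 min minus the 2 min difference, with Benjamini-Hochberg adjustment and chosen after the data were seen, 15 of the 51 genes had a lower difference at 8 min and 2 a higher one, where 5.99% and 3.73% of all genes did. The change was -0.77 on the log2 scale for IQD10, -0.61 for CTL2, -0.67 for AT1G13635, -0.59 for AT4G27435 and -0.93 for SAG13 (adjusted p 1.49e-09, 2.51e-08, 2.09e-07, 2.26e-09 and 0.0148, limma). For DYL1 it was 0.62 (adjusted p 0.000412, limma). The 8 min and 2 min libraries differ in depth, which cannot be told apart from time.

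The leaf differences from leaf control also changed between the times for part of the genes. In the same kind of test 10 of the 45 genes had a lower difference at 8 min than at 2 min and 17 a higher one. Over all genes 20.6% and 18.1% did, so the count of 10 is near the share over all genes. The change was 0.83 for cPT4, 0.51 for GolS2, 0.55 for CTL2, -0.70 for AT1G34060 and -0.051 for SIGE on the log2 scale (adjusted p 8.3e-32, 1.32e-26, 0.00049, 5.8e-22 and 0.0019, limma). For cPT4 and GolS2 the leaf means were 12000 and 5521 at 8 min and 6528 and 3808 at 2 min. The 2 min leaf libraries are the deeper ones here too.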

How the results depend on the processing

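The set itself depends most on its threshold: with a ratio of 1.5 it held 128 genes and with 2 it held 15, and with the 2 min groups alone it held 100. Leaving out a control replicate gave 49 to 56 genes and leaving out a stressed replicate 51 to 53. Among the tested counts, the single gene higher under HL than under HS at 8 min became 0 with the compared groups alone, edgeR and DESeq2, and 0 to 1 without a replicate. At 2 min the count of 0 became 1 with edgeR. Under HL&HS against HL+HS at 2 min, the 3 higher genes became 0 with no filter, 10 with the compared groups alone, 10 with edgeR and 8 with DESeq2, and 0 without any replicate. The 13 lower genes there became 2 to 6 when a replicate was left out. Higher counts without a replicate ran from 4 to 8 under HL&HS at 8 min, from 1 to 3 at 8 min against 2 min and from 3 to 9 in the 8 min leaves. Over all genes, HL against HS at 2 min gave 1100 lower and 615 higher with limma, against 1750 and 1715 with edgeR, and HL&HS against HL+HS at 2 min gave 305 and 270, against 764 and 986. DESeq2 gave 1594 and 1416 in the first of these and 778 and 833 in the second, and a fit of the compared groups alone 1894 and 1426, and 1049 and 1232. HL against HS at 8 min gave 1506 and 1173, against 757 and 567 with the compared groups alone and 976 lower with DESeq2. The 2 min leaves gave 2244 lower, against 3406 with the compared groups alone. Without a replicate, all-gene counts ran from 496 to 759 lower and 249 to 302 higher for HL against HS at 2 min, from 896 to 1297 and 738 to 901 at 8 min, from 105 to 145 and 96 to 128 for HL&HS against HL+HS at 2 min, from 602 to 980 and 1200 to 1695 for 8 min against 2 min (1494 and 2151 with all), and from 1293 to 1388 and 2108 to 2249 in the 2 min leaves (2244 and 3237 with all). For these changes the cause was not tested, apart from the smaller number of samples when replicates are left out. Of 400 alternatives for single genes 370 kept their call and direction and 0 reversed. Replicate numbers did not pair the libraries (same-number correlations of -0.189 to 0.208 in stem, with 10 of 27 libraries closest to their own number, and of -0.154 to 0.31 in leaf, with 17 of 33). With the replicate block 17 genes were lower and 6 higher in the 8 min leaves, against 18 and 5, and the other comparisons kept their counts. The intervals and spreads cover 3 libraries a group, and low genes such as AT4G08555 rest on few reads.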
